A study of Mus musculus with 2 samples.

Results

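Vessel growth in the adult heart is steered by a small set of secreted ligands and the receptors that endothelial cells carry for them, and 10 such genes were followed here, chosen by symbol from a fixed list among the 19465 genes counted. They comprised 7 ligand genes (Vegfa, Vegfb, Vegfc, Pgf, Angpt1, Angpt2 and Apln) and 3 receptor genes (Flt1, Kdr and Aplnr). All 10 passed the minimum of 20 unique molecular identifiers (UMIs) over both sections that 15236 genes passed. Transcripts were measured by probe hybridization on 5 μm sections of formalin-fixed paraffin-embedded heart with the Visium CytAssist assay, which reads an array of barcoded spots. The control section came from 1 α-MHC-MerCreMer+/− mouse, and the transgenic section from 1 α-MHC-MerCreMer+/− hTOP2B LSL/− mouse. Both mice thus carried a tamoxifen-activated Cre recombinase driven by the cardiomyocyte promoter α-MHC, and both were given 1 intraperitoneal dose of 80 mg/kg of tamoxifen. The transgenic mouse also carried a human TOP2B cDNA under the CAG promoter at Rosa26, which a floxed stop cassette keeps silent until Cre acts. The study describes animals 6 weeks old for this acute model, and the labels of the sections give neither the age, nor the sex, nor the time after the injection.

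In the control section 1256 spots yielded 14376300 UMIs (median 11335.5 in a spot), and in the transgenic section 924 spots yielded 12953389 UMIs (median 14531). UMIs were summed over a section and expressed per 1000000 of its total (CPM), and changes are log2 ratios of transgenic over control CPM. The median log2 ratio over all 15236 genes was 0.20, so a gene at 0 lay below the middle of the transcriptome. Ranges in parentheses are 95% intervals for counting error only. With 1 section per genotype no difference has a replicate check and no p value was computed, and the spread inside a section is given by its 4 quadrants. Spots hold several cells, so that fewer cells of a type and less RNA per cell cannot be told apart in any value below. Cardiomyocyte marker genes took 7.93% of the control and 4.18% of the transgenic UMIs, and all 9 were detected in both. Their log2 ratios ran from Tnni3 (−1.92) to Tnnt2 (0.17), with a median of −1.03 and 8 of 9 lower. The erythroid share was 0.215% and 2.04%, and the summed share of 16 endothelial markers was 0.212% and 0.241%. Mouse Top2b measured 106 and 102 CPM (log2 ratio −0.07, −0.17 to 0.04), and the human transgene has no feature of its own in the counts, so these values do not check the labels. The 4 Y-linked genes measured were at 0 in both sections. The sections share 725 spot barcodes, which belong to fixed array positions.

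VEGF-A is the principal signal for endothelial sprouting and acts through KDR, while FLT1 binds VEGF-A, VEGF-B and PlGF (the product of Pgf) and limits the VEGF-A that reaches KDR. VEGF-C signals through FLT4 in lymphatic vessels and can also engage KDR. Angiopoietin 1 activates the receptor TEK and steadies mature vessels, angiopoietin 2 often opposes it, and apelin, known from tip cells at the front of sprouts, acts through APLNR on endothelium and on heart muscle. Transcription of Vegfa is known to respond to oxygen through hypoxia-inducible factor (HIF).

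Of the genes with a matched promoter, those whose levels diverged most are shown, since HIF is known to bind the core motif searched here, and Flt1 is set beside Kdr. They are the 250 bases before the start of transcription, from RefSeq on build GRCm38.p6, namely Vegfb at chr19:6987652-6987901 on the minus strand, Vegfc at chr8:54077282-54077531 on the plus strand, Apln at chrX:48034854-48035103 on the minus strand, Flt1 at chr5:147726012-147726261 on the minus strand and Kdr at chr5:75978456-75978705 on the minus strand. Capitals mark the hypoxia response core GCGTG, or CACGC where it lies on the other strand.
Vegfb: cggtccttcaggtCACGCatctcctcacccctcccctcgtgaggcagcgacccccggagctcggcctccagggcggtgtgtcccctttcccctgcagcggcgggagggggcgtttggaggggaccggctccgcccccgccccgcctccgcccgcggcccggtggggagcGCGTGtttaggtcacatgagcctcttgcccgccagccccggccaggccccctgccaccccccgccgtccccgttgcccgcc
Vegfc: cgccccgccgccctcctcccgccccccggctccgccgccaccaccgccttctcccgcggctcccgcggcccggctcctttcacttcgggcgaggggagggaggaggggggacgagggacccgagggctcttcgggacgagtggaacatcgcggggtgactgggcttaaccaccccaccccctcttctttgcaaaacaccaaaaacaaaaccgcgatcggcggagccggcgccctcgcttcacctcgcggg
Apln: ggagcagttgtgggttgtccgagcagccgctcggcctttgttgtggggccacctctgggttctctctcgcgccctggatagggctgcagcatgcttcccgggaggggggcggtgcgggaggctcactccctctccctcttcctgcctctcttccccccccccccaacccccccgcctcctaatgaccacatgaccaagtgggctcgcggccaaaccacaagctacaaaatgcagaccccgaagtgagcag
Flt1: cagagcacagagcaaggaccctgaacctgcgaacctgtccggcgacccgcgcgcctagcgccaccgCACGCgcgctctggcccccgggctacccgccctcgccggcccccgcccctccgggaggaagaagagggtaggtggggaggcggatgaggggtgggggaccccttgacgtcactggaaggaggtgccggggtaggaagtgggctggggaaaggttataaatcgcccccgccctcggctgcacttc
Kdr: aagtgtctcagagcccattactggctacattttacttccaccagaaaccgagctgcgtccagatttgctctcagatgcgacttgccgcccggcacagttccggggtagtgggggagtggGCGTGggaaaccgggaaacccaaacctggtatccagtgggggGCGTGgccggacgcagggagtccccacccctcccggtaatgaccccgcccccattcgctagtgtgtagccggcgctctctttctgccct

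The hypoxia cores ACGTG and GCGTG were searched on both strands. Vegfb and Kdr each held 2 copies of GCGTG, Flt1 held 1, and none stood in the windows of Vegfc and Apln. Of all 32851 promoters of this length, 28.2% held GCGTG, 16.6% held ACGTG and 38.6% held either, beside 5 of the 9 member promoters that matched. All 9 were richer in G and C (59.2% to 76.4%) than the median promoter. The background was not matched for this, so the count does not show an excess of cores. Those 9 belonged to 7 of the 10 genes, and Angpt1, Angpt2 and Aplnr were not matched. Vegfb and Vegfc were both rich in G and C (76.4% and 71.6%) against a median of 52.4% over all promoters, although their levels went opposite ways. A match in these letters is a description of the window and not a binding site.

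Of the 10 genes, Vegfc and Angpt1 were higher by 2-fold or more and Vegfb, Apln and Aplnr lower by that much, which makes 2 and 3 genes. Over all genes tested, 13.7% passed this fold upward and 5.61% downward. At 1.5-fold Kdr joined the lower group, beside a background of 12.9%, and no further gene joined the higher group, beside 27.4%. For Vegfa, Vegfb, Apln, Kdr and Aplnr the highest quadrant of the transgenic section was still under the lowest of the control, an order that 13.1% of all genes showed. Vegfc and Angpt1 had the reverse order, which 30.3% showed. Pgf, Angpt2 and Flt1 overlapped. The genes thus did not move as a group.

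**Figure D1:**
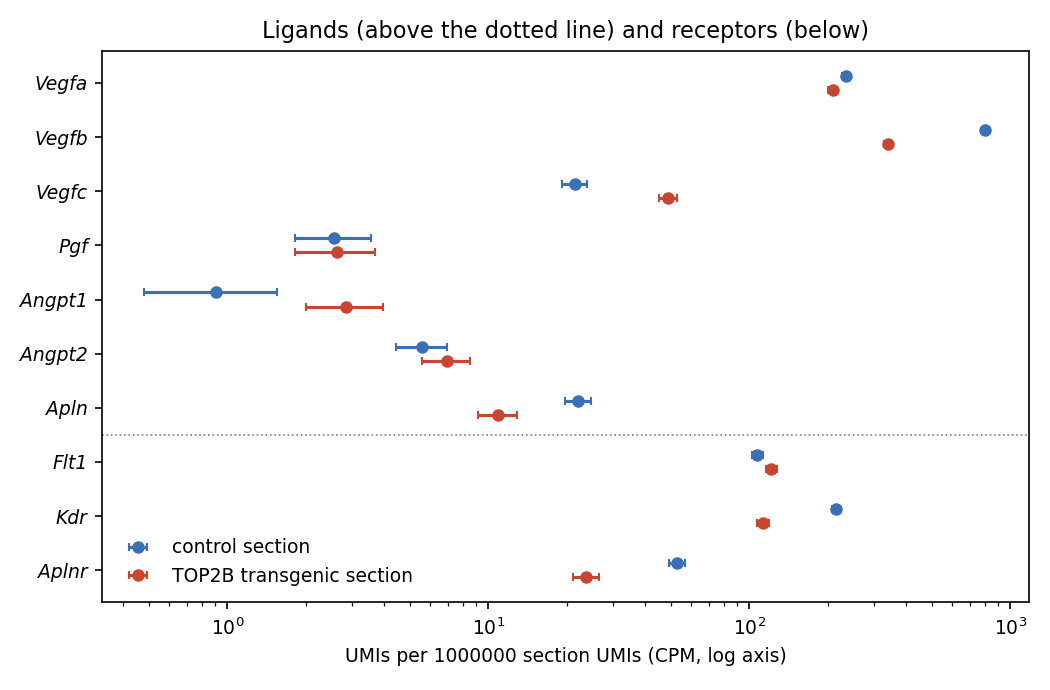
Level of each gene in the control (blue) and transgenic (red) section as CPM on a log axis, with exact Poisson 95% intervals of the summed UMIs. Vegfb was the farthest apart of the abundant genes, at 799 and 339 CPM, while the pairs of points of Pgf and Angpt2 overlap in their intervals.

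Among the VEGF ligands, Vegfb showed the clearest loss. VEGF-B, made largely by heart muscle, is known for endothelial lipid handling more than for sprouting. Vegfb measured 799 CPM (784 to 814) in the control and 339 CPM (329 to 350) in the transgenic section, a 2.35-fold lower level (log2 ratio −1.24, −1.29 to −1.18), and 3.22% of all genes had a lower ratio. Its control quadrants lay at 811, 787, 796 and 802 CPM and its transgenic quadrants at 373, 294, 377 and 311 CPM. Every transgenic quadrant was thus under 50% of every control quadrant. Of the control spots 99.0% held a Vegfb UMI and of the transgenic spots 94.4%. After each spot was thinned to 8134 UMIs, with 140 control and 78 transgenic shallower spots left out, the shares were 100% and 91.4%.

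Vegfa changed little. It measured 234 CPM (226 to 242) in the control and 209 CPM (201 to 217) in the transgenic section. The log2 ratio of −0.16 (−0.24 to −0.09) lay 0.37 below the median of all genes. The control quadrants spanned 225 to 245 CPM and the transgenic quadrants 184 to 221 CPM, close to each other without overlap. This difference depended on which spots were taken, since the ratio was 0.06 in the 50% of spots richest in cardiomyocyte markers. Vegfa UMIs were found in 91.2% of control and 88.4% of transgenic spots (83.8% and 80.6% after thinning). The ratio of Vegfa to Vegfb UMIs went from 0.293 to 0.616, a comparison chosen after the values were seen (log2 change 1.07, 0.98 to 1.16).

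Vegfc, the ligand of lymphatic growth, went the other way. It measured 21.4 CPM (19.1 to 24.0) in the control and 48.7 CPM (45.0 to 52.7) in the transgenic section, a 2.27-fold higher level (log2 ratio 1.19, 0.99 to 1.39). The control quadrants held 25.3, 21.2, 23.0 and 15.7 CPM and the transgenic quadrants 49.6, 50.4, 43.3 and 52.7 CPM. The share of spots with a Vegfc UMI was 20.7% in the control and 47.1% in the transgenic section (16.3% and 33.7% after thinning). Its relative Vegfd, the other ligand of FLT4, counted 53 and 223 UMIs (log2 ratio 2.22, 1.79 to 2.68), again with no overlap between quadrants. Pgf, scarce in the healthy heart, counted 37 and 34 UMIs (log2 ratio 0.03, −0.69 to 0.74), so a change of up to 1.67-fold in either direction was not detectable at this depth.

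Both VEGF receptors are endothelial genes, yet they parted. Kdr measured 215 CPM (207 to 222) in the control and 113 CPM (107 to 119) in the transgenic section, a 1.90-fold lower level (log2 ratio −0.92, −1.01 to −0.83). Its control quadrants were 206, 212, 228 and 211 CPM and its transgenic quadrants 124, 91.1, 128 and 110.03 CPM. Kdr UMIs were found in 89.2% of control and 74.1% of transgenic spots, and in 80.2% and 60.0% after thinning. Flt1, the receptor that holds back VEGF-A, measured 107 CPM (102 to 113) and 122 CPM (116 to 128). Its log2 ratio of 0.18 (0.08 to 0.28) was 0.02 below the median of all genes, and in the 50% of spots poorest in erythroid genes it was −0.0031. The Flt1 quadrants overlapped, at 98.2 to 119 CPM in the control and 93.6 to 141 CPM in the transgenic section. In the UMI ratio of Kdr to Flt1, which needs no scaling between sections and was chosen after the values were seen, the quadrants went from 1.88 to 2.16 in the control to 0.907 to 0.973 in the transgenic section (log2 change −1.10, −1.24 to −0.97).

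No endothelial marker gene fell as far as Kdr. Over 16 such markers the median log2 ratio was 0.07, with 11 higher and 5 lower, beside 63.2% of all genes higher. Against the median of all genes, 7 lay above and 9 below, and 3 had intervals wholly below 0. They ran from Robo4 (−0.52), a guidance receptor of vessels, to Vwf (2.48), the clotting factor of endothelium. Kdr and Aplnr lay below all 16, whereas Flt1 lay above 9 of them and below 7. Against Cdh5, which encodes the endothelial junction cadherin, the Kdr ratio went from 1.29 to 0.659 (log2 change −0.97, −1.09 to −0.85). That pair was also chosen after the values were seen. The other receptors of the family moved less than Kdr. The VEGF co-receptor Nrp2 had a log2 ratio of −0.62 (−0.76 to −0.47) and its relative Nrp1 one of 0.09 (−0.02 to 0.20). Flt4 was at 0.47 (0.22 to 0.73) with overlapping quadrants, while 6 lymphatic markers ran from Prox1 (−0.74), which heart muscle also expresses, to Pdpn (1.75).

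**Figure D2:**
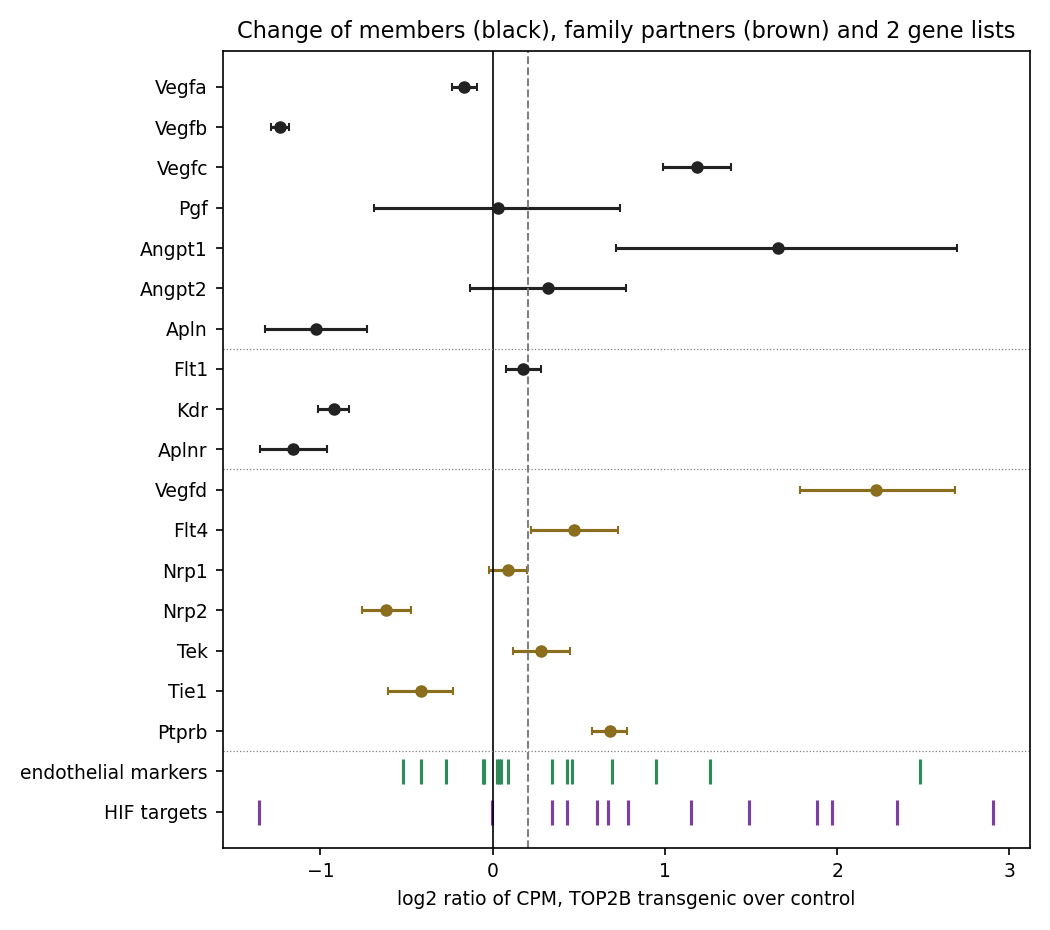
Log2 ratio of transgenic over control CPM (horizontal axis) of the 7 ligands, 3 receptors and 7 further members of their families, with 95% counting intervals, and of the single genes of the endothelial marker and HIF target lists (ticks). The dashed line is the median of all genes at 0.20. Kdr (−0.92) and Aplnr (−1.16) lie left of every endothelial tick, and Flt1 (0.18) lies among them.

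The angiopoietins were scarce. Angpt1, the stabilising ligand made by mural cells, counted 13 UMIs in the control and 37 in the transgenic section (log2 ratio 1.66, 0.71 to 2.70). Its quadrants did not overlap, at 0.524 to 1.44 CPM in the control and 1.91 to 3.60 CPM in the transgenic section, although these are few UMIs each. Angpt2, released by activated endothelium, counted 80 and 90 UMIs (log2 ratio 0.32, −0.13 to 0.77), and its quadrants overlapped. The UMI ratio of Angpt2 to Angpt1 was 6.15 in the control and 2.43 in the transgenic section (log2 change −1.34, −2.35 to −0.33). Of the genes that act on the same receptor, Tek itself was at 0.28 (0.12 to 0.45), Tie1, its partner receptor, at −0.42 (−0.61 to −0.23), and Ptprb, the phosphatase that quiets TEK, at 0.68 (0.58 to 0.78). The third angiopoietin of mice, Angpt4, counted 11 and 25 UMIs. The 10 mural markers ran from Abcc9 (−1.58) to Cnn1 (2.74) with a median of 0.11.

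Apelin and its receptor were both lower. Apln measured 22.1 CPM (19.8 to 24.7) in the control and 10.9 CPM (9.16 to 12.8) in the transgenic section, a 2.03-fold lower level (log2 ratio −1.02, −1.32 to −0.73). Its quadrants lay at 19.4, 22.5, 25.9 and 20.7 CPM in the control and 13.7, 6.37, 10.7 and 14.0 CPM in the transgenic section. Aplnr measured 53.0 CPM (49.3 to 56.9) and 23.8 CPM (21.2 to 26.6), a 2.23-fold lower level (log2 ratio −1.16, −1.35 to −0.96). The Aplnr quadrants lay between 50.03 and 55.1 CPM in the control and between 19.4 and 28.2 CPM in the transgenic section, with no overlap. Apln UMIs were in 21.7% of control and 12.3% of transgenic spots, and Aplnr UMIs in 44.0% and 27.2%. After thinning the shares were 16.2% and 7.92% for Apln and 35.3% and 17.7% for Aplnr. Apela, the other ligand of APLNR, counted only 3 and 7 UMIs.

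**Figure D3:**
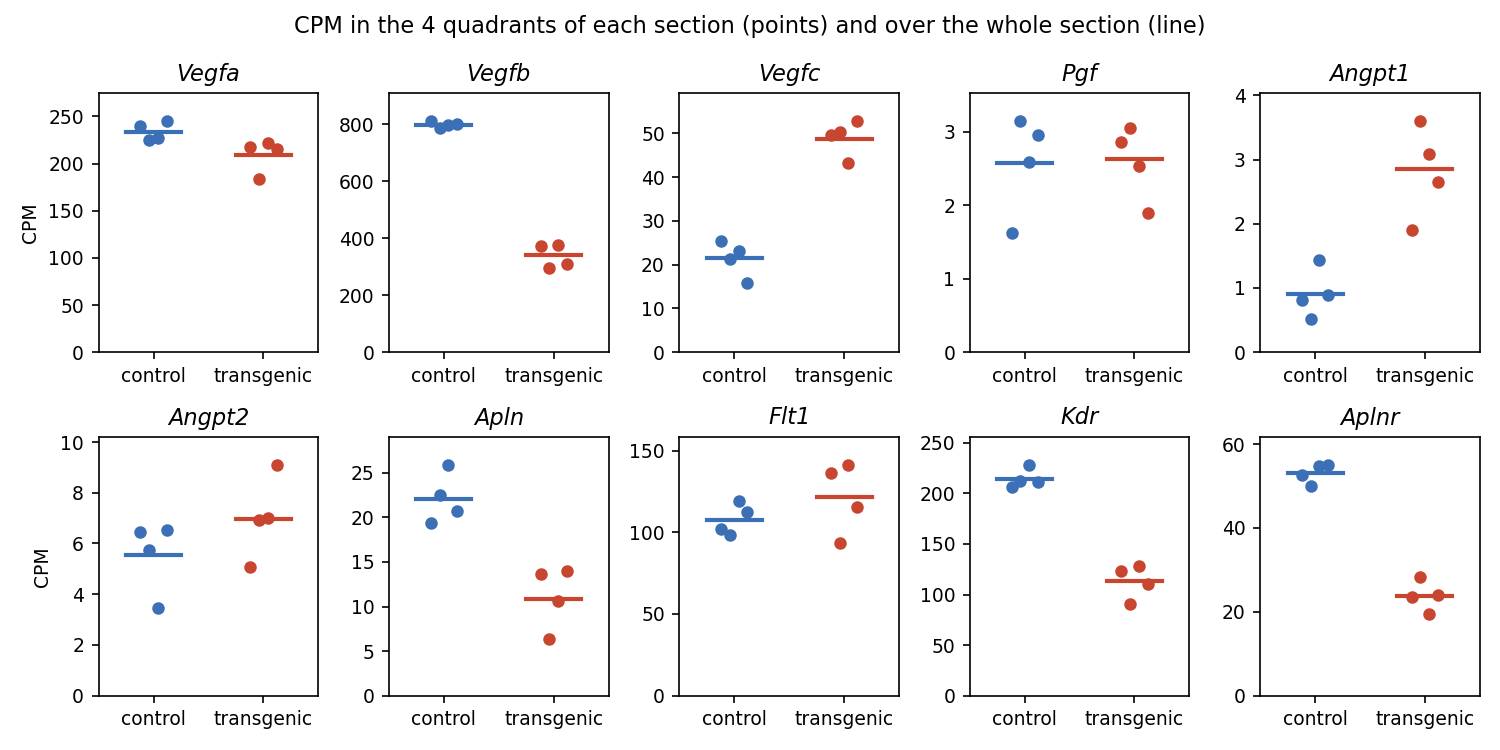
CPM of each gene in the 4 quadrants of a section (points) and over the whole section (line), with a vertical axis from 0 in each panel. The quadrants of Vegfb, Kdr, Apln and Aplnr are lower in the transgenic section without overlap, those of Vegfc and Angpt1 are higher, and those of Pgf, Angpt2 and Flt1 overlap.

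Ligands and receptors were set against each other by UMI ratios within a section, 9 pairs in all with Angpt2 to Angpt1 above. The median log2 ratio was 0.03 over the 7 ligands, whose middle gene was Pgf, and −0.92 over the 3 receptors, whose middle gene was Kdr. The 6 receptor-side partners Flt4, Nrp1, Nrp2, Tek, Tie1 and Ptprb had a median of 0.19, with 4 higher and 2 lower. The receptor median thus depends on which receptors are members. Among the 4 ligands with at least 200 UMIs over both sections the median was −0.59. The balance of Vegfa against Kdr moved toward the ligand, from 1.09 to 1.85 UMIs of Vegfa per UMI of Kdr (log2 change 0.76, 0.64 to 0.88), and the quadrant ratios did not overlap (0.994 to 1.16 and 1.72 to 2.02). Against Flt1, Vegfa went slightly the other way, from 2.18 to 1.72 (−0.34, −0.47 to −0.22), with overlapping quadrants. Vegfb lost most against its receptor Flt1, from 7.43 to 2.79 (−1.41, −1.53 to −1.30). Vegfc gained on Flt4, from 1.31 to 2.15 (0.71, 0.40 to 1.03). Angpt1 gained on Tek (1.38, 0.45 to 2.30), on 13 control UMIs and with overlapping quadrant ratios (0.0136 to 0.0362 and 0.0349 to 0.0751). Angpt2 to Tek (0.04, −0.43 to 0.50) and Pgf to Flt1 (−0.15, −0.83 to 0.53) had intervals that include no change. Apln and Aplnr kept nearly the same ratio, 0.417 and 0.458 (0.13, −0.21 to 0.48), over the whole section but not at each distance from the tissue edge.

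Apln was the gene whose position differed most. Spots were ranked by their distance in spots from the nearest edge, where an edge spot lacks a neighbouring spot over tissue. Such spots lie at the outer surface, at the cavity or at any gap in the spots. Of the 311 transgenic edge spots, 285 remained without the erythroid spots described below. In the control section Apln measured 16.4 CPM in edge spots and 23.6 CPM at 2 or more steps from the edge. In the transgenic section it measured 18.7 CPM (68 UMIs in 311 spots) at the edge, 12.6 CPM at 1 step and 4.78 CPM (27 UMIs in 363 spots) at 2 or more steps. At the edge as a whole the sections differed by a log2 ratio of 0.19 (−0.43 to 0.84), and at 2 or more steps by −2.30 (−2.94 to −1.73). The lower section total thus came mainly from spots away from the edge, although cavity edge spots also measured lower, as given below. Edge over inner spots was −0.53 (−1.10 to 0.00) in the control and 1.97 (1.30 to 2.67) in the transgenic section, where Apln and Angpt2 were the members at least 2-fold higher at the edge, beside 1.62% of 11825 genes. In the control section 2.88% of 11673 genes passed that fold, and no member among them did. Control Angpt1 reached it only on 5 UMIs at either place, under the minimum of 20 UMIs for that share. Among the edge spots of the transgenic section the outer surface stood out, a split made after the map was seen. Cavity edge is used here for all inner edges, which can also border gaps. Outer edge spots measured 14.3 CPM (8.31 to 22.8) in the control and 29.7 CPM (22.0 to 39.3) in the transgenic section. Cavity edge spots measured 19.6 CPM (11.2 to 31.9) and 10.02 CPM (6.04 to 15.7). The intervals of the sections overlapped at the outer edge, narrowly, and at the cavity edge. The split held 136 outer and 84 cavity spots in the control and 131 and 154 in the transgenic section, and left some edge spots out. The transgenic spot with the most Apln held 9 UMIs and lay 1 step from the edge, and without it the section's log2 ratio was −1.12.

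**Figure D4:**
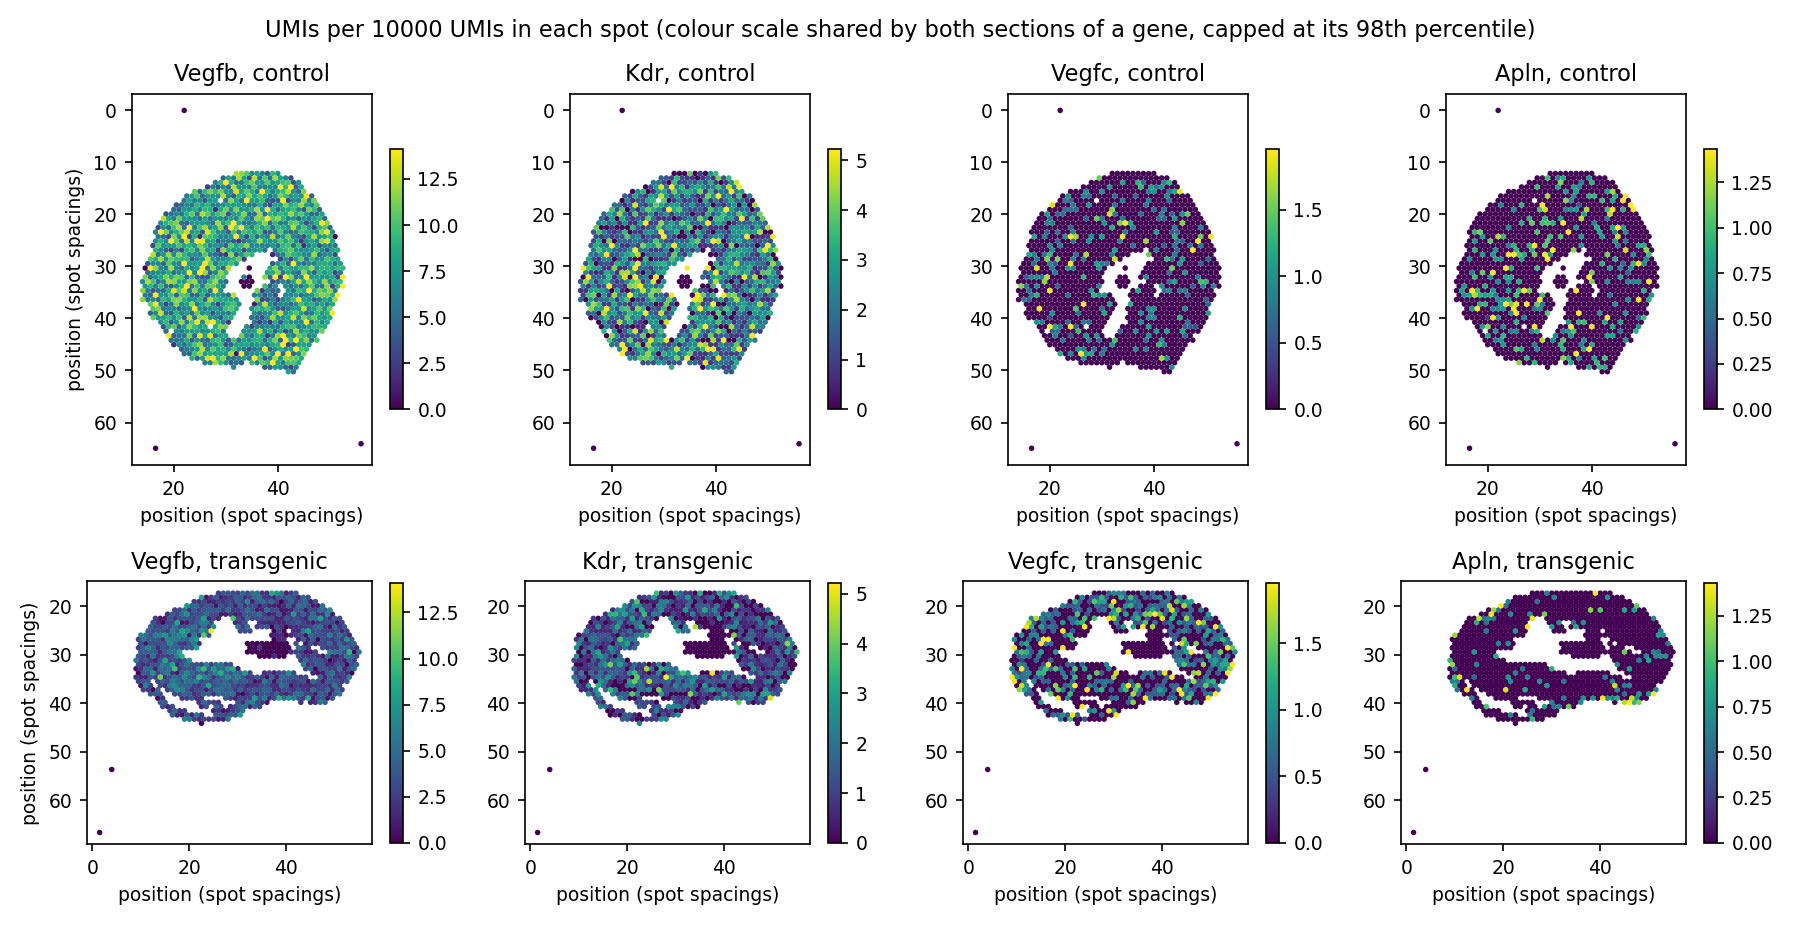
Spot maps of Vegfb, Kdr, Vegfc and Apln in the control (upper row) and transgenic section (lower row), coloured by UMIs per 10000 UMIs of the spot, with positions in spot spacings. Vegfb and Kdr are dimmer across the whole transgenic wall, and Vegfc is brighter throughout. Transgenic Apln has its highest level along the outer rim (29.7 CPM), which holds 49 of its 141 UMIs. A patch of spots in the transgenic cavity is dark for all of these genes.

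Aplnr had the opposite gradient. In the control it was even, at 51.6 CPM in edge spots and 54.9 CPM at 2 or more steps. In the transgenic section it measured 16.5 CPM at the edge, 22.6 CPM at 1 step and 29.2 CPM at 2 or more steps (edge over inner −0.83, −1.28 to −0.39), beside 3.32% of genes at least 1.5-fold lower at the edge. The 311 edge spots of the transgenic section held 68 Apln and 60 Aplnr UMIs, and the 230 of the control held 33 and 104. The 363 inner spots of the transgenic section held 27 and 165, and the 804 of the control held 230 and 535. As spot numbers differ, these counts compare Apln with Aplnr within a set of spots, not a gene between sections. Angpt2 was higher at the edge of the transgenic section, at 9.89 CPM against 4.43 CPM in inner spots (1.16, 0.38 to 1.96), while its control values of 7.94 and 4.72 CPM had an interval that includes no difference (0.75, −0.17 to 1.60). Kdr, Vegfb, Vegfc and Flt1 had edge over inner log2 ratios between −0.23 and 0.01 in both sections, and Kdr had log2 ratios between sections of −0.85 at the edge and −0.90 inside. Fewer spots lay far from an edge in the transgenic section, with 29 spots at 4 or more steps against 421 in the control.

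**Figure D5:**
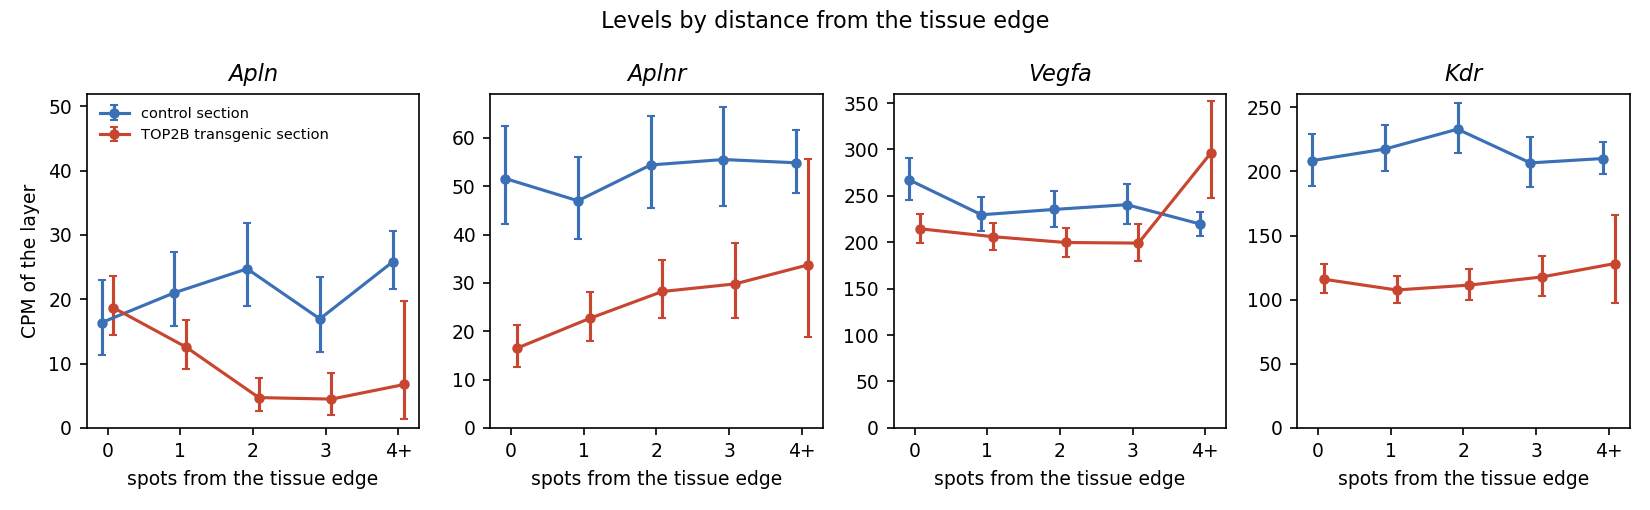
CPM of Apln, Aplnr, Vegfa and Kdr by the number of spots from the tissue edge, in the control (blue) and transgenic (red) section, with exact Poisson 95% intervals. Apln meets the control at the edge (18.7 and 16.4 CPM) and falls away inside, Aplnr rises inward from 16.5 CPM, and Kdr stays near its section level. The last transgenic point holds 29 spots.

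The patch in the transgenic cavity consisted of spots dominated by erythroid genes. Spots in which cardiomyocyte markers reached under 50% of the section's median share numbered 9 in the control and 43 in the transgenic section, a set defined after the data were seen. The median share of erythroid UMIs in them was 52.2% and 79.5%, against 0.132% and 0.576% in the other spots. The 43 transgenic spots held 178075 UMIs, of which 2 were Vegfa, 10 Vegfb, 1 Vegfc and 3 Flt1, with none of Kdr, Apln or Aplnr. Of the 43 spots, 4.65% held a Vegfa UMI against 92.5% of the other transgenic spots, at median depths of 4186 and 14696 UMIs. Erythroid UMIs made up most of their counts, which lowers the share of every other gene. Their values therefore do not give a background level for these genes. Without these spots the transgenic levels were 212 CPM for Vegfa, 343 CPM for Vegfb, 49.3 CPM for Vegfc, 115 CPM for Kdr and 11.04 CPM for Apln, so the section ratios did not rest on them.

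Within the remaining transgenic spots the genes followed the make-up of the tissue. Spots were ranked by the share of UMIs from each marker list and divided into 4 bins of equal spot number. From the lowest to the highest bin of cardiomyocyte share, Vegfb went from 273 to 443 CPM (log2 0.70, 0.57 to 0.82), Vegfa from 170.0 to 240.0 CPM (0.50, 0.34 to 0.66), Kdr from 79.6 to 146 CPM (0.88, 0.65 to 1.10) and Flt1 from 94.1 to 138 CPM (0.56, 0.34 to 0.77). In the control section, also without its 9 erythroid spots, the same ranking gave 750.4 and 825 CPM for Vegfb, 259 and 219.9 CPM for Vegfa, and 209 and 216 CPM for Kdr, so the range between bins was narrower. In the transgenic bin richest in cardiomyocyte markers, Vegfb and Kdr were below the lowest control bin. The bins were ranked within each section and are not matched in marker share between sections. That comparison therefore cannot separate level from tissue make-up. Vegfc took the opposite course in the transgenic section, with 57.2 CPM in the lowest and 38.2 CPM in the highest cardiomyocyte bin (−0.58, −0.93 to −0.24).

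Ranked by fibroblast markers, whose share of UMIs was 0.163% in the control and 0.452% in the transgenic section, the order turned round. Col1a1 and Col1a2, named after their values were seen, gave 14264 and 22615 of the 58605 transgenic UMIs of that list. Vegfc was at 39.8 CPM in the lowest and 58.5 CPM in the highest transgenic bin (0.56, 0.22 to 0.90). Vegfb went from 430.0 to 284 CPM, Kdr from 139 to 90.7 CPM and Flt1 from 147 to 93.8 CPM. Ranked by endothelial markers, Apln showed a wide step, from 6.23 to 20.6 CPM (1.73, 0.99 to 2.52), whereas Aplnr had 26.4 and 23.3 CPM (−0.18, −0.65 to 0.29). Fabp4, named after its values were seen, gave 12738 of the 31264 transgenic UMIs of that list, so the ranking leans on this gene. In the control section without its erythroid spots, Apln (21.0 and 23.8 CPM) and Flt1 (110.1 and 104 CPM) had intervals that include no difference by that ranking, while Kdr went from 202 to 231 CPM and Aplnr from 48.8 to 60.1 CPM. Ranked by the cardiomyocyte stress genes Nppa, Ankrd1, Acta1, Myh7 and Sprr1a, transgenic Apln went from 14.0 to 5.01 CPM (−1.48, −2.38 to −0.64). The same marker shares differ between the sections, and their part in the section ratios was not tested. The spot subsets by marker share given with the processing were also chosen within each section.

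Moran's I, a score of how alike neighbouring spots are that the authors deposited for each gene, lay at or below 0.06 for all 10 genes in the control section, where Vegfb was highest and 1.07% of all genes had a higher value than Vegfb. In the transgenic section it was 0.31 for Vegfb, 0.17 for Vegfa, 0.14 for Kdr, 0.11 for Flt1 and 0.08 for Apln. There 2.03% of genes had a higher value than Vegfb, so its rank among genes was high in both sections. These scores include the erythroid spots. Spot by spot, Vegfa, Vegfb, Flt1 and Kdr correlated at 0.17 to 0.27 over all transgenic spots (Pearson r over 923 spots that share 1 library) and at 0.07 to 0.16 over the 881 other spots, so the stronger values rested on that patch.

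Over blocks of 6 array rows by 12 columns, the genes most like each member were sought among those with at least 1000 UMIs. These numbered 2278 in the control and 2338 in the transgenic section. The highest of so many values over few blocks are high by selection, and no chance level was computed. Without the erythroid spots, Vegfb in the transgenic section was most like Acat1, Sod2 and Lpl (r 0.85, 0.83 and 0.82 over 34 blocks of 1 section), which serve ketone metabolism, superoxide removal and lipid uptake. Kdr was most like Txn2, Myl3 and Mb (0.77, 0.76 and 0.74), the last 2 being heart muscle genes. Flt1 was most like Myl3, Mb and Etfdh (0.68, 0.67 and 0.67), and Vegfa like Paqr9, Flt1 and Ldb3 (0.68, 0.62 and 0.62). In the control section the highest values were lower, from 0.54 for Flt1 with Rhoc to 0.67 for Kdr with Paqr9. With the erythroid spots included, the transgenic values were all between 0.92 and 0.99.

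Further genes of vessel growth were taken from lists whose members were picked by known function. The lists were drawn up with earlier results of these data known, so their counts describe the lists and are not independent support. Of 13 HIF target genes, 11 were higher and 2 lower in the transgenic section (median log2 ratio 0.79, beside 63.2% of all genes higher in CPM), from Hk2 (−1.36), a hexokinase of muscle, to Car9 (2.91), a carbonic anhydrase with 8 and 54 UMIs. Vegfa, itself a known HIF target, was at −0.16. Among 11 genes of oxygen sensing and Vegfa regulation, Egln1, the main oxygen-sensing hydroxylase, was lowest (−1.55) and Hif3a highest (2.24), with 6 higher and 5 lower. In bins of transgenic spots ranked by the HIF target share, and without the erythroid spots, Vegfa went from 190.2 to 235 CPM (0.30, 0.14 to 0.46), and Vegfb was flat at 355 and 337 CPM.

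Beside the 63.2% of all genes that were higher and the 13.7% at least 2-fold higher, inhibitors of vessel growth with enough UMIs were higher in 9 of 9 cases, with a median log2 ratio of 1.65 from Vash1 (0.38) to Thbs1 (3.05), an extracellular thrombospondin. Of these, 8 were at least 2-fold higher. Fibroblast markers mostly moved the same way, with a median of 1.11 and a range from Gsn (0.00) to Col1a1 (2.68). All 8 had ratios above 0, but 6 had intervals above 0 and 6 lay above the median of all genes. Their part in the inhibitor values was not tested. Of 10 tip cell genes 8 were higher, with a median of 0.86, from Esm1 (−0.75) to Adm (2.35), which encodes adrenomedullin and is also a HIF target. Of 13 other ligands of vessel growth 8 were higher, a share close to that of all genes, from Fgf1 (−1.67) to Hgf (3.66), a growth factor with 17 and 193 UMIs, and of 12 other receptors 9 were higher, from Robo4 (−0.52) to Fgfr1 (1.31). Macrophage markers ran from Lyz2 (−0.20) to Cd163 (1.28) with a median of 0.86, endocardial markers from Cytl1 (−1.43) to Vwf (2.48), and epicardial markers from Upk3b (−0.37) to Krt19 (2.04). Beside these lists, Kdr, Aplnr, Apln and Vegfb stood lower than every listed inhibitor and every endothelial marker. They lay within the range of the 9 cardiomyocyte markers, from Tnni3 (−1.92) to Tnnt2 (0.17), whose median was −1.03. Genes of other lists lay below all of them, among them Fgf1 (−1.67), the mural marker Abcc9 (−1.58), Egln1 (−1.55), Cytl1 (−1.43) and Hk2 (−1.36).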

How the data were processed

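Per the labels and the study's methods, FFPE heart sections of 1 control and 1 transgenic mouse were processed with Visium CytAssist. The authors ran bcl2fastq and Space Ranger (version 2.0.0 in the header), with GRCm39 named in the submitters' processing notes. The deposited matrices hold raw UMI counts per gene and spot over tissue, not normalized. The deposited Moran's I is a score per gene and was used as given, and its p values were not used. Counts were summed per section, since spots are not replicates, and divided by the section total. Intervals are exact Poisson (levels), conditional binomial (ratios), Clopper–Pearson (shares) and Wald (ratios of ratios). A count of 0 allows up to 3 counts (0.209 and 0.232 CPM). Spots were thinned to the 10th percentile of depth, split into quadrants at the median row and column, and layered on the hexagonal grid. Promoters came from RefSeq (GRCm38.p6).

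The members and gene lists were chosen with earlier results of these data known. Named genes are the members, their family partners, the highest and lowest gene of each list with at least 20 UMIs, the 3 genes most alike over blocks, Top2b and Y-linked genes, and others are named as chosen after their values were seen. Alternatives were edgeR 4.0.16 TMM and DESeq2 1.42.0 size factors in R 4.3.3 (scaling only), totals without the 50 most abundant genes, spot subsets, and other UMI minimums. The ratio intervals were checked on simulated Poisson counts without variation between animals or sections, so that check covers counting error only. Scripts ran in Python 3.11.15 with scipy 1.17.1, numpy 2.4.6 and pandas 2.3.3.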

Additional observations from a re-analysis of the deposited data

How the results depend on the processing

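Each alternative was judged against the gene's own counting interval, so the tally depends on UMI depth and does not measure stability by itself. Of 120 alternative values of the 10 members, 99 moved by less than the counting error, 19 by more, and 2 turned a ratio whose interval excluded 0. Vegfa was at 0.056 in the 50% of spots richest in cardiomyocyte markers, and Flt1 at −0.0031 in the 50% poorest in erythroid genes, an alternative chosen after seeing the data, as were totals without erythroid genes and the spots with at least 50% of the median cardiomyocyte share. Log2 ratios ranged from −1.39 to −1.05 for Vegfb, 1.03 to 1.27 for Vegfc, −1.08 to −0.70 for Kdr, −1.31 to −0.999 for Aplnr, −1.56 to −0.53 for Apln, 1.02 to 1.93 for Angpt1 and −0.63 to 0.06 for Pgf, whose main interval included 0 and which lay below 0 in 6 of 12 alternatives. TMM factors shifted all ratios by −0.16 and DESeq2 size factors by −0.15, which put the median of all genes at 0.05. The receptor median was the value of Kdr under every alternative. It was −1.08 with TMM, −1.07 with DESeq2, −0.70 in spots rich in cardiomyocyte markers and −0.81 in spots rich in endothelial markers. Counts of members at least 2-fold higher were 2 throughout, and lower ones 2 to 4. Of 54 pair values, 49 moved by less than their error and 5 by more, with none turned among pairs whose interval excluded 0. Of the others, Angpt2 to Tek and Apln to Aplnr each lay below 0 in 2 of 6, and Apln to Aplnr ranged from −0.56 away from the edge to 0.76 in spots rich in endothelial markers. The causes were not tested. No paired analysis was possible because each genotype has 1 section. Depth limits Pgf, Angpt1 and Angpt2, each under 100 UMIs a section. With intervals that wide, all 12 alternatives of each counted as unmoved, as did those of Vegfc and Aplnr. For the deeper genes Vegfa, Vegfb, Flt1 and Kdr, 4 or 5 of 12 moved by more than the error. Spots with at least 1000 UMIs were 1249 of 1256 in the control and 921 of 924 in the transgenic section, so that subset could change little.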
